A study of Mus musculus with 12 samples.

Results

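Immune checkpoint genes encode ligands and receptors that restrain T cells and other lymphocytes, and 7 of them are described here in subcutaneous mouse tumors. They were chosen by name as the rows for Cd274, Pdcd1lg2, Pdcd1, Lag3, Havcr2, Tigit and Lgals9, and all 7 of the 7 were among the 14496 genes of the deposited table. Every tumor was made by injecting Renca cells, a renal carcinoma line, under the skin of BALB/C mice, and was taken on day 14. For 6 tumors, called the IK group, the host also bore an intra-kidney tumor. The other 6, called the alone group, grew without one. The study asked how a distant tumor, named immunosuppressive in its design, relates to the transcriptome of the subcutaneous tumor. Whole tumors were used, so each value mixes all their cell types. No label ties a tumor to an animal, and the p-values therefore cover only sample-to-sample spread, which may be technical.

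Checkpoint receptors sit mainly on activated and long-stimulated T cells and on NK cells, while their ligands are made by tumor cells, macrophages and dendritic cells. Binding recruits phosphatases or other inhibitory proteins to the receptor and dampens signals from the T cell receptor or its costimulators. Interferon gamma, a cytokine that T and NK cells secrete, induces several of the ligands. These genes are known in tumors as targets of antibodies that release T cells from inhibition.

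Depth was 53312559 to 66142468 recovered reads per tumor. Levels are log2 CPM as deposited, the log2 of a gene's reads scaled to the size of the library. The 9 tested epithelial markers of the Renca cells had a list mean of 5.77 to 5.97 log2 CPM in the IK group. It was 5.74 to 5.91 alone. These markers were uneven, with group means of 9.98 and 10.02 for Krt8 but 0.22 and 0.17 for Cldn7 (IK group and alone). Krt19 was not in the deposited table. A tumor of each group, IK replicate 2 and alone replicate 6, resembled the opposite group in most immune genes. On the T cell reference, the mean log2 CPM of the T cell receptor chain genes Cd3d, Cd3e and Cd3g, they lay at 3.20 and 0.64. The rest of the IK group lay at -0.04 to 1.13 and the rest of the alone group at 1.86 to 3.12. Results were also computed without each of these tumors, a choice made after seeing the data for all but the limma fits.

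Among the ligands, PD-L1 and galectin-9 were abundant and PD-L2 transcripts were scarce. Cd274 encodes PD-L1, the broadly expressed and interferon-inducible ligand of PD-1. It lay between 5.72 and 6.51 log2 CPM in the IK group, with a median of 5.95, and between 6.04 and 6.59 alone, with a median of 6.40. In the IK group 4 of 6 tumors were below every tumor of the alone group, but replicate 2 at 6.51 was above 4 of those 6, so the groups overlapped. The mean was 6.01 ± 0.30 in the IK group and 6.36 ± 0.21 alone (SD, n = 6 each), a log2 difference of -0.35 or a 1.28-fold lower geometric mean. Pdcd1lg2 encodes PD-L2, a further ligand of PD-1 found mainly on dendritic cells and macrophages. It lay between 0.02 and 1.56 log2 CPM in the IK group, with a median of 0.59, and between 0.46 and 1.98 alone, with a median of 1.32. The high tumors were replicate 2 of the IK group and replicates 1, 3, 4 and 5 of the alone group, while replicates 2 and 6 of the alone group lay among the other IK tumors. Its mean was 0.64 ± 0.52 in the IK group against 1.20 ± 0.57 alone (log2 CPM, SD, n = 6 each).

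Lgals9 encodes galectin-9, a sugar-binding protein reported as a ligand of TIM-3 and made by many cell types. It lay between 6.28 and 6.73 log2 CPM in the IK group, with a median of 6.40, and between 6.23 and 6.97 alone, with a median of 6.55. Its highest values were in replicate 5 of the alone group and replicate 2 of the IK group, and its lowest in replicate 6 of the alone group. The other 5 tumors of the IK group spanned 6.28 to 6.43. The mean was 6.43 ± 0.16 in the IK group and 6.56 ± 0.24 alone (log2 CPM, SD, n = 6 each).

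The promoters of the 3 ligands are shown because interferon induces several checkpoint ligands. Each is the 250 bases before the gene start, 5′ to 3′ on the gene's strand, from RefSeq on GRCm38.p6. They are chr11:78984925-78985174 on the minus strand for Lgals9, and chr19:29367188-29367437 and chr19:29410669-29410918 on the plus strand for Cd274 and Pdcd1lg2. Capitals mark matches to a pair of interferon regulatory factor cores, to TTCNNNGAA (the gamma-activated sequence) or to TGANTCA (AP-1), searched on both strands.
Lgals9: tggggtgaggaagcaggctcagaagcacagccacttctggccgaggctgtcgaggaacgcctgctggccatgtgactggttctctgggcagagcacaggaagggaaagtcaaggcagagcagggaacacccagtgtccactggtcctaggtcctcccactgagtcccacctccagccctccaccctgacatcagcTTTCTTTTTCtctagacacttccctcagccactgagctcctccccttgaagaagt
Cd274: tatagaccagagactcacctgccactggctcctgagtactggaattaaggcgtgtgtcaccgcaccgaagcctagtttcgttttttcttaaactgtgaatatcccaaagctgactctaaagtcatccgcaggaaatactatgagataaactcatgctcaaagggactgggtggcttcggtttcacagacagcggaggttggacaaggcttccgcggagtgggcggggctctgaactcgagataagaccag
Pdcd1lg2: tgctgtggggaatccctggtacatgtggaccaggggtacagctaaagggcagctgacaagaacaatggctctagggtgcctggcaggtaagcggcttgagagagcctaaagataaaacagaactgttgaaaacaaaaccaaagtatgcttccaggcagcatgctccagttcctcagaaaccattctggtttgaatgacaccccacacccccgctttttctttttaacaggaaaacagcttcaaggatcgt
Lgals9 held the paired interferon regulatory factor core on its minus strand, at bases -55 to -46 from the start, a motif found in 2.98% of 32851 RefSeq promoters of this length. Cd274 and Pdcd1lg2 had no match to any of the 3 motifs in these windows. The gamma-activated sequence was in 7.02% of all promoters and AP-1 in 6.75%. Of the receptors, Havcr2 held 1 AP-1 match, at bases -200 to -194, and Pdcd1 and Tigit held none of the 3. The short core GGAAA, bound by NFAT factors, was in 5 of the 6 members with a promoter and in 55.6% of all promoters. Lag3 had no entry. A match is a run of letters and no evidence that a factor binds there. Cd274 and Pdcd1lg2 are near neighbours on their chromosome, with only the gene model Gm36043 starting between them in RefSeq.

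**Figure D1:**
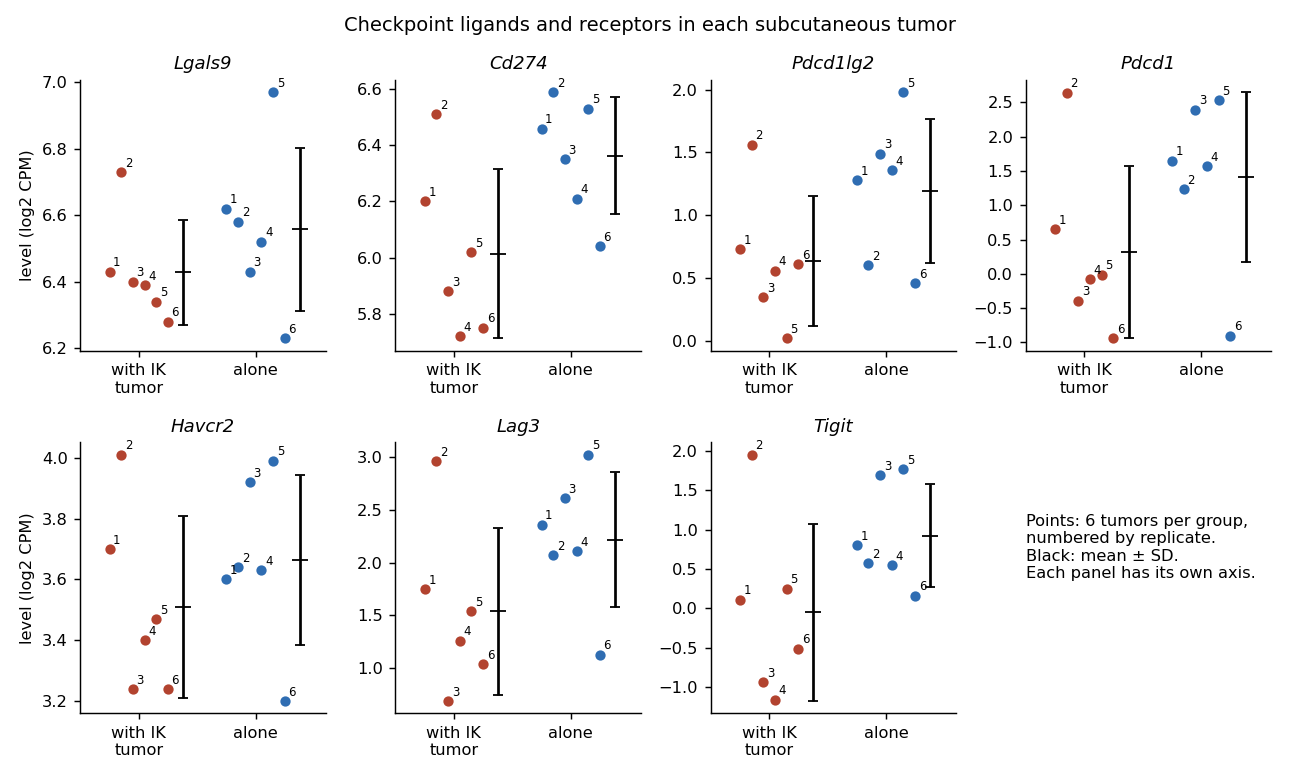
Level of each member in each tumor (log2 CPM, one panel and axis per gene, points numbered by replicate, mean ± SD in black, n = 6 per group). Replicate 2 of the IK group was the highest of its group in all 7 panels, and replicate 6 of the alone group the lowest of its group in all 7.

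Transcripts of the inhibitory receptors PD-1 and TIGIT had group means about 1 log2 unit lower in the IK group and wide spread between tumors. Pdcd1 encodes PD-1, which carries tyrosine motifs that recruit phosphatases after ligand binding. It lay between -0.94 and 2.64 log2 CPM in the IK group, with a median of -0.05, and between -0.90 and 2.53 alone, with a median of 1.61. In the IK group 5 of 6 tumors were at most 0.65, and in the alone group 5 of 6 were at least 1.23. The remaining tumor of each group lay at the far end of the other, so the ranges were nearly the same. The mean was 0.31 ± 1.25 in the IK group and 1.41 ± 1.24 alone (log2 CPM, SD, n = 6 each). The log2 difference of -1.10 was smaller than these SDs.

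Tigit encodes a receptor of T and NK cells that competes with the activating receptor CD226 for the ligand PVR. It lay between -1.16 and 1.95 log2 CPM in the IK group, with a median of -0.20, and between 0.16 and 1.77 alone, with a median of 0.68. In the IK group 4 of 6 tumors were below every alone tumor. Replicate 2 of that group was the highest of all 12. The mean was -0.05 ± 1.13 in the IK group and 0.92 ± 0.66 alone (log2 CPM, SD, n = 6 each). Reads for Tigit ran from 24 to 221 per tumor and those for Pdcd1 from 28 to 366, so counting error adds about 20.4% and 18.9% in their lowest tumors.

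Lag3 encodes a receptor that binds MHC class II and restrains T cells. It lay between 0.69 and 2.96 log2 CPM in the IK group, with a median of 1.398, and between 1.13 and 3.02 alone, with a median of 2.24. Apart from IK replicate 2 and alone replicate 6, the IK tumors were at most 1.75 and the alone tumors at least 2.07. The mean was 1.54 ± 0.79 in the IK group and 2.22 ± 0.64 alone (log2 CPM, SD, n = 6 each). Havcr2 encodes TIM-3, found on exhausted T cells and also on macrophages and dendritic cells. It lay between 3.24 and 4.01 log2 CPM in the IK group, with a median of 3.43, and between 3.20 and 3.99 alone, with a median of 3.63. These ranges coincided, and the mean was 3.51 ± 0.30 in the IK group and 3.66 ± 0.28 alone (log2 CPM, SD, n = 6 each).

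All 7 members had a lower mean in the IK group, and none passed the test across all genes. Of the 14008 genes tested, 46.7% had a lower mean. The members' median log2 difference was -0.56, against 0.01 for all genes tested. Limma called 0 genes lower and 0 higher at a Benjamini-Hochberg adjusted p under 0.05 (0% in each direction), and the members' adjusted p ran from 0.43 for Cd274 to 0.66 for Havcr2. At an unadjusted p under 0.05 limma had 787 genes lower (5.62%) and 821 higher (5.86%), among them 1 of the 7 members. That member was Cd274, with a difference of -0.35 (SE 0.13, 95% interval -0.64 to -0.06, limma unadjusted p = 0.0221). Groups that did not overlap, with the IK group lower, occurred for 0 of 7 members and for 0.2% of all genes.

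The intervals of the other members included 0. For Tigit the log2 difference was -0.97 (95% interval -2.01 to 0.07, limma), and for Pdcd1 it was -1.10 (-2.49 to 0.29). Lag3 differed by -0.68 (95% interval -1.48 to 0.13, limma) and Pdcd1lg2 by -0.56 (-1.18 to 0.06). Havcr2 differed by -0.15 (95% interval -0.48 to 0.18, limma) and Lgals9 by -0.13 (-0.36 to 0.10). In these bulk samples, fewer cells of a type and less RNA per cell cannot be told apart.

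Leaving out a tumor moved these values without making a call. IK replicate 2 was the highest of its group and alone replicate 6 the lowest of its own for all 7 members. Leaving out either could therefore only widen the differences. Without replicate 2 of the IK group, the differences were -0.45 for Cd274, -1.57 for Pdcd1, -1.37 for Tigit, -0.96 for Lag3, -0.74 for Pdcd1lg2, -0.25 for Havcr2 and -0.19 for Lgals9. The smallest Benjamini-Hochberg adjusted p among them was then 0.056, for Cd274 (limma), and 0 of 7 passed while 146 of the genes tested (1.04%) were called lower and 25 (0.178%) higher. Without replicate 6 of the alone group, the differences were -0.42 for Cd274, -1.56 for Pdcd1, -1.12 for Tigit, -0.89 for Lag3, -0.70 for Pdcd1lg2, -0.24 for Havcr2 and -0.19 for Lgals9, with the smallest adjusted p of the 7 at 0.196 (limma). With array weights, which weigh more variable tumors less, Cd274 was the 1 member called lower, at -0.43 (limma adjusted p = 0.0469), beside 2.93% of all genes called lower and 0.957% higher. Without replicate 5 of the alone group, Havcr2 differed by -0.09 and Lgals9 by -0.05.

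**Figure D2:**
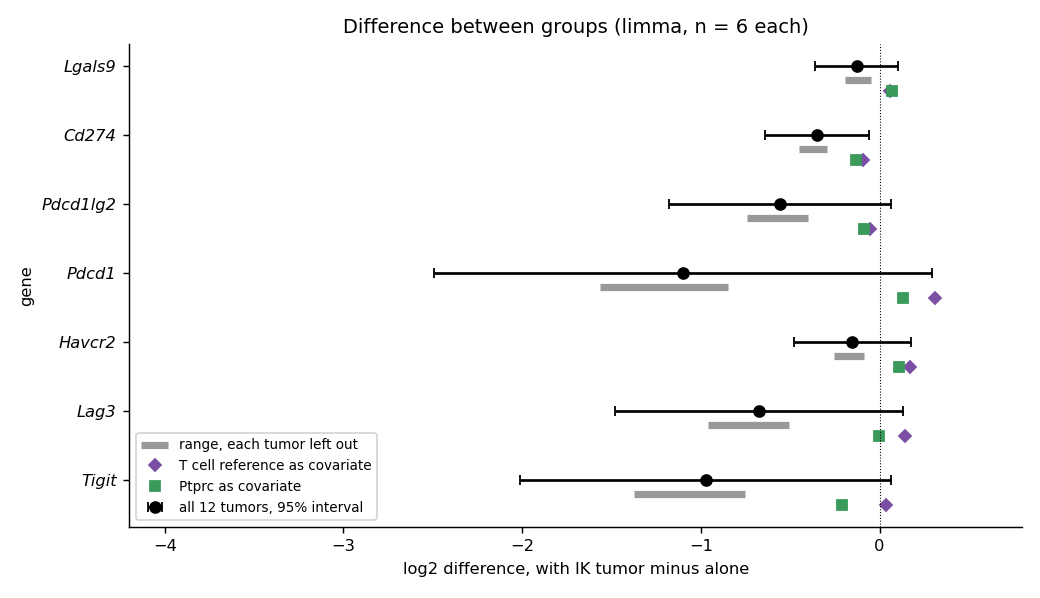
Log2 difference of each member, IK group minus alone (black: limma estimate with 95% interval, n = 6 each; grey: range with each tumor left out; purple and green: T cell reference or Ptprc as a covariate). All black points lie below 0, and only the interval of Cd274 excludes 0 before adjustment over all genes.

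The order of the members' levels was set per length of exon, as log2 CPM per kb over the 12 tumors. Lgals9 was highest (5.40), followed by Cd274 (4.33), Havcr2 (2.14), Lag3 (0.80), Tigit (0.56), Pdcd1lg2 (-0.06) and Pdcd1 (-0.09). The first 3 steps of this order held in 12 of 12 tumors. Lag3 was above Tigit in 9 of 12 tumors and Tigit above Pdcd1lg2 in 9 of 12, and Pdcd1lg2 was above Pdcd1 in 6 of 12. The gaps of 0.24 and 0.61 log2 units between Lag3 and Tigit and between Tigit and Pdcd1lg2 were smaller than the SDs of Tigit (1.02) and, for the first gap, of Lag3 (0.77). Exon lengths came from GENCODE M21, a newer annotation than the mm9 build of the files, so the per-length levels are approximate.

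The members also differed in how far tumors ranged. From the lowest to the highest of the 12 tumors Pdcd1 spanned 11.99-fold, Tigit 8.61-fold, Lag3 5.02-fold and Pdcd1lg2 3.90-fold. Cd274 spanned 1.83-fold, Havcr2 1.75-fold and Lgals9 1.67-fold.

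Markers of the cells that carry these receptors moved with the members. All 14 tested T cell genes had lower means in the IK group (median log2 difference -1.33), with a summed level of 59.9 to 204 CPM there and 71.7 to 241 CPM alone. All 9 CD8 and cytotoxic genes (median -1.87; 12.02 to 106 against 19.7 to 124 CPM) and all 7 NK cell genes (median -1.37; 6.67 to 62.3 against 11.8 to 80.5 CPM) did so too. The sums lean on the highest genes of a list. Among T cell genes Thy1 had means of 5.75 log2 CPM in the IK group and 6.14 alone, with Lck next at 3.49 and 4.17. Ccl5 was the highest CD8 and cytotoxic gene, at 3.45 and 4.07. CD4 and regulatory T cell genes were lower in 7 of 7 (median -1.08; 11.4 to 48.4 against 14.0 to 70.2 CPM), and dendritic cell genes in 15 of 15 (median -0.53; 313 to 717 against 352 to 801 CPM). Macrophage and monocyte genes were lower in 12 of 15 with a median of -0.12, at 4309 to 5908 CPM in the IK group and 4059 to 5619 CPM alone. None of these genes passed over all genes tested (limma, Benjamini-Hochberg, 0% called), and no tested marker was at 0 reads in any tumor. Some genes stand in more than 1 list. Other cell types varied too: fat cell genes had lower means in 5 of 5 (median -1.15), fibroblast genes in 7 of 8 (median -0.39) and endothelial genes in 8 of 8 (median -0.13). Of the B and plasma cell genes 2 of 4 had lower means, of the neutrophil genes 4 of 5 and of the skeletal muscle genes 2 of 7. Alone replicate 6 stood far apart on the muscle list, at a mean of -1.67 log2 CPM against 2.25 to 5.76 in the other 11 tumors. Without it 7 of 7 muscle genes had lower means in the IK group (median -1.01), and without IK replicate 2 there were 5 of 7 (median -0.20). The counts for T cell, CD8 and cytotoxic, CD4, NK and dendritic cell genes were the same with either tumor left out singly. Medians for T cell genes were -1.79 without IK replicate 2 and -1.65 without alone replicate 6. Each tumor had been picked for resembling the opposite group, so leaving it out tends to widen these differences. The unchanged counts are therefore no check on them. For macrophage genes the count stayed at 12 of 15, with a median of -0.17 and -0.19. The part of these cell types in the members' differences was not tested. The covariate fits that follow cannot give it, since the covariates were themselves lower in the IK group and came from the same libraries.

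**Figure D3:**
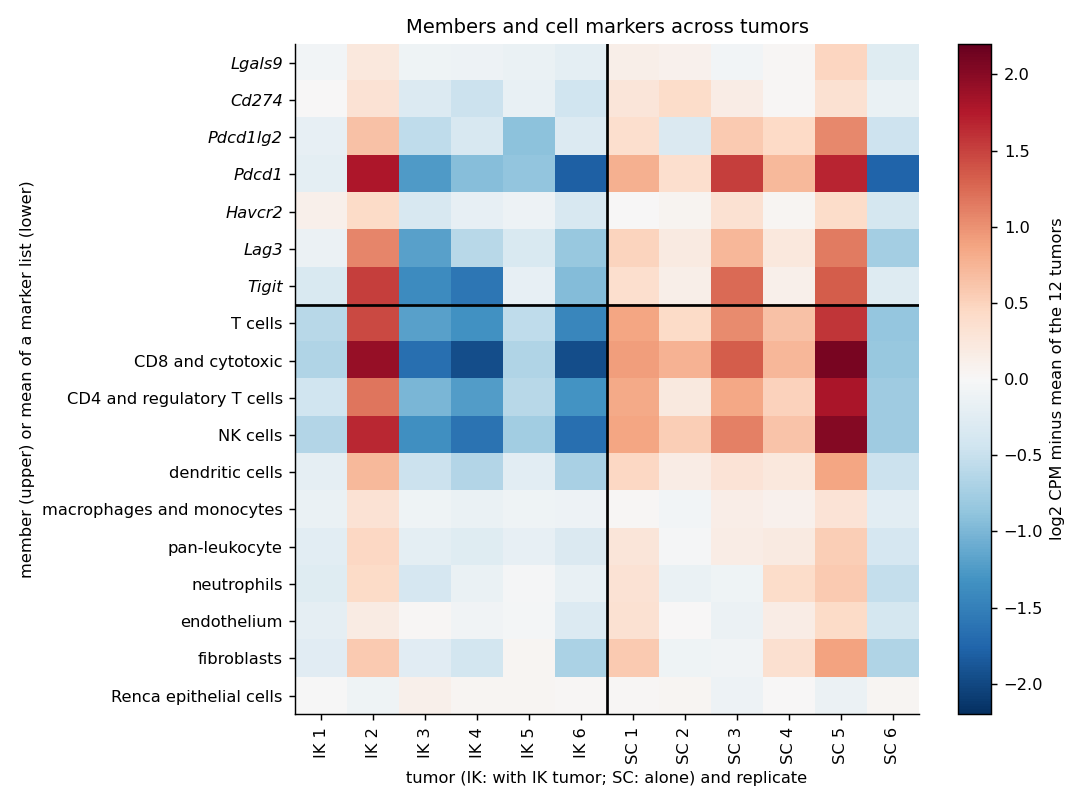
Members (upper rows, log2 CPM) and means of marker lists (lower rows) in each tumor, each row minus its mean over the 12 tumors. Replicate 2 of the IK group shares its colours with replicates 3 and 5 of the alone group, replicate 6 of the alone group with the IK group, and the epithelial row is nearly flat.

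Each member was higher in tumors with more T cell transcripts, to different degrees. Per log2 unit of the T cell reference, the fitted slope was 1.07 log2 units for Pdcd1, 0.81 for Tigit, 0.63 for Lag3 and 0.42 for Pdcd1lg2. It was 0.23 for Cd274, 0.22 for Havcr2 and 0.14 for Lgals9. Pearson's r over the 12 tumors was 0.98 for Lag3 (Spearman's rho 0.98), 0.97 for Pdcd1 (0.98), 0.95 for Tigit (0.94) and 0.92 for Havcr2 (0.89). It was 0.90 for Cd274 (rho 0.85), 0.85 for Pdcd1lg2 (0.82) and 0.79 for Lgals9 (0.86). Within the IK group r was 0.97 for Pdcd1 and 0.96 for Cd274, and within the alone group 0.99 and 0.63 (n = 6 each). Without the 2 tumors farthest from the median of the reference, IK replicate 2 and alone replicate 5, r over the other 10 was 0.94 for Pdcd1, 0.86 for Cd274 and 0.69 for Lgals9. With only alone replicate 6 left out, r was 0.98 for Pdcd1, 0.90 for Cd274 and 0.78 for Lgals9. The members also followed references of other leukocytes over the 12 tumors. With the mean of the macrophage genes Csf1r, Adgre1 and Cd68, r was 0.97 for Pdcd1, 0.95 for Lag3 and 0.92 for Havcr2. It was 0.91 for Tigit, 0.90 for Pdcd1lg2 and 0.82 each for Cd274 and Lgals9. With the leukocyte gene Ptprc, r ran from 0.83 for Tigit to 0.94 for Pdcd1, with Lgals9 at 0.91. These values do not set T cell transcripts apart. These are descriptions over genes chosen with earlier results known, and all values of a tumor share its library.

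**Figure D4:**
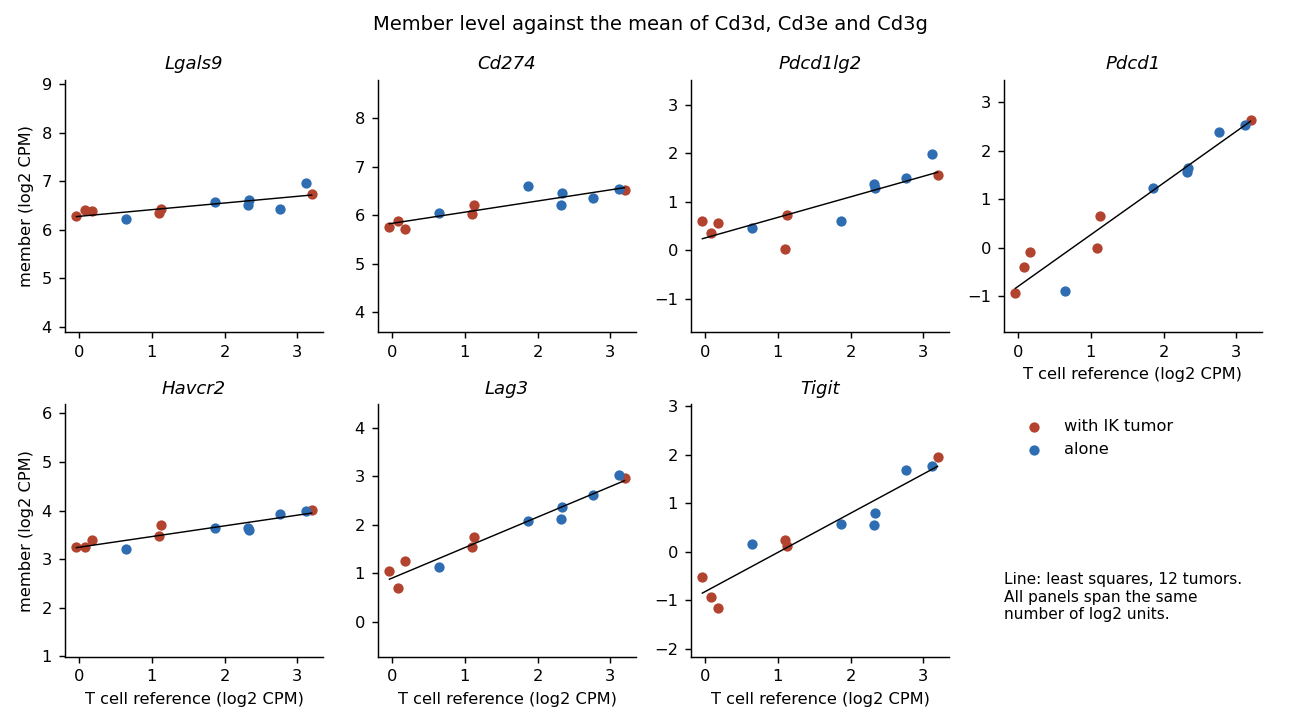
Level of each member (log2 CPM) against the T cell reference, the mean of Cd3d, Cd3e and Cd3g (log2 CPM), one point per tumor, with a least-squares line. The line is steepest for Pdcd1 (slope 1.07) and flattest for Lgals9 (0.14).

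With the T cell reference as a covariate in limma, 5 of the 7 group differences were positive. Apart from Havcr2, which went from -0.15 to 0.17, the members lay nearer 0 than before. Pdcd1 was at 0.31 (SE 0.22), Havcr2 at 0.17 (SE 0.07), Lag3 at 0.14 (SE 0.12), Lgals9 at 0.06 (SE 0.08), Tigit at 0.04 (SE 0.22), Pdcd1lg2 at -0.05 (SE 0.21) and Cd274 at -0.09 (SE 0.09). Havcr2 had a limma unadjusted p of 0.0312 there, and its Benjamini-Hochberg adjusted p of 0.747 was the smallest of the 7. With Ptprc, the gene of the leukocyte surface protein CD45, as the covariate, 4 of 7 were lower, from -0.21 for Tigit to -0.00229 for Lag3. Since the covariates themselves were lower in the IK group, these fits take away what a member shares with them.

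Relative to the T cell reference within each tumor, PD-1 transcripts differed between group means by 0.14 log2 units, less than the SD of either group. The reference itself was 0.94 ± 1.22 log2 CPM in the IK group and 2.18 ± 0.86 alone (SD, n = 6 each). Its log2 difference was -1.24. Pdcd1 minus the reference ran from -1.10 to -0.25 log2 units in the IK group and from -1.55 to -0.37 alone, with means of -0.63 ± 0.31 and -0.77 ± 0.40 (SD, n = 6 each). Alone replicate 6 was the lowest of all at -1.55, and without it the alone mean was -0.61 ± 0.15 (SD, n = 5) and the difference -0.02, with its sign turned. Tigit minus the reference was -0.99 ± 0.31 in the IK group and -1.25 ± 0.44 alone, and Lag3 minus the reference 0.60 ± 0.49 and 0.04 ± 0.26 (log2 units, SD, n = 6 each). Without alone replicate 6 the difference in Tigit went from 0.26 to 0.42. For Lag3, 4 of 6 IK tumors lay above all 6 of the alone group. Havcr2 minus the reference was 2.57 ± 0.94 in the IK group and 1.49 ± 0.60 alone (log2 units, SD, n = 6 each). Havcr2 itself differed by -0.15 and Lag3 by -0.68, each less in size than the reference, so their relative means were higher in the IK group. Without IK replicate 2 the difference went from 1.08 to 1.43 for Havcr2 and from 0.56 to 0.73 for Lag3. For all 4 receptors the groups overlapped, also with IK replicate 2 or alone replicate 6 left out singly. The effect of leaving out both was not computed.

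Relative to a macrophage reference, the mean of Csf1r, Adgre1 and Cd68, Lgals9 and Havcr2 differed by less than their SDs, and the PD-1 ligands had lower means in the IK group. The reference itself was 7.67 ± 0.15 log2 CPM in the IK group and 7.79 ± 0.13 alone (SD, n = 6 each). Lgals9 minus it was -1.24 ± 0.05 and -1.23 ± 0.17, and Havcr2 minus it -4.16 ± 0.18 and -4.13 ± 0.15 (log2 units, IK group and alone, SD, n = 6 each). Cd274 minus it was -1.66 ± 0.19 in the IK group and -1.43 ± 0.16 alone, and Pdcd1lg2 minus it -7.03 ± 0.39 and -6.59 ± 0.46 (log2 units, SD, n = 6 each). Relative to Ptprc, Cd274 was at -1.28 ± 0.14 and -1.28 ± 0.24 (log2 units, IK group and alone, SD, n = 6 each). The other members differed relative to Ptprc in either direction, by -0.75 for Pdcd1, -0.63 for Tigit, -0.33 for Lag3, -0.21 for Pdcd1lg2, 0.19 for Havcr2 and 0.22 for Lgals9 (log2 units). For Cd274 this difference was -0.0055, and 0.02 and 0.04 without IK replicate 2 and without alone replicate 6. The other 6 kept their direction with either tumor left out singly. In every case the groups overlapped.

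**Figure D5:**
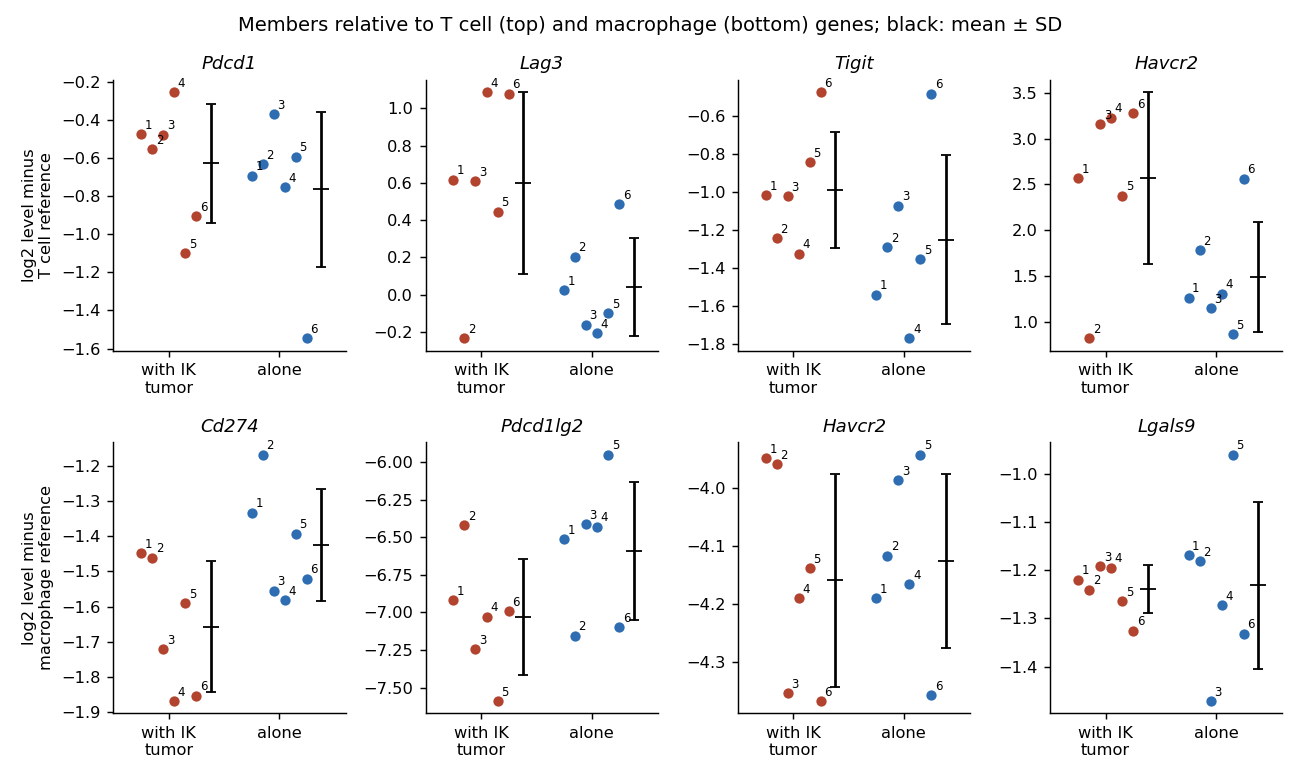
Members minus the T cell reference (top) or the macrophage reference (bottom) within each tumor (log2 units, points numbered by replicate, mean ± SD in black, n = 6 per group). Groups overlap in all 8 panels, and the largest gap between means is that of Havcr2 against the T cell reference (2.57 against 1.49). The T cell reference itself had a log2 difference of -1.24 between the groups.

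The levels of the 7 members rose and fell together over the 12 tumors, as they did with the leukocyte references above. Pearson's r over the 12 tumors ran from 0.67 (Cd274 and Pdcd1lg2) to 0.97 (Pdcd1 and Lag3) over the 21 pairs, with a median of 0.85. Within the IK group it ran from 0.70 to 0.97 and within the alone group from 0.36 (again Cd274 and Pdcd1lg2) to 0.97 (n = 6 each). The neighbouring ligand genes had the lowest r of all pairs over the 12 tumors. Without IK replicate 2 the lowest was 0.62, for Tigit and Lgals9, and without alone replicate 6 it was 0.66, for the ligand genes.

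The genes whose levels followed each member most closely over the 12 tumors, of 12436 symbols searched, were these. For Cd274 they were Rab7b, Mab21l3 and Rubcnl (r = 0.97, 0.97 and 0.96), and for Pdcd1lg2 Dennd4b, Slc15a3 and Abtb2 (0.97, 0.96 and 0.94). For Lgals9 they were Mx1, Slfn5 and Ifi208 (r = 0.97, 0.97 and 0.96). For Pdcd1 they were Irf2, Clec12a and Pik3r5 (r = 0.98 each), and for Lag3 Skap1, Cd52 and Nmi (0.99, 0.98 and 0.98). For Havcr2 they were Il12b, Abcg1 and Hvcn1 (r = 0.98, 0.97 and 0.97), and for Tigit B2m, Psmb8 and Ly6a (0.99, 0.98 and 0.98). Each was chosen for its high r, which is therefore no test.

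Most other inhibitory receptors also had lower means. The list of 14 tested genes also held Laptm5 and Entpd1, which do not encode inhibitory receptors. Of the 14, 13 had a lower mean in the IK group (median -0.32) and 6 a limma unadjusted p under 0.05 in that direction. After adjustment 0 passed (limma, Benjamini-Hochberg, smallest adjusted p = 0.43). Of all genes tested, 46.7% had a lower mean and 5.62% an unadjusted p under 0.05 in that direction. Klrc1, which encodes the NK and T cell receptor NKG2A, was -1.35 ± 2.08 log2 CPM in the IK group and 0.96 ± 1.18 alone (SD, n = 6 each). Ctla4, the receptor that takes CD80 and CD86 from CD28, was -0.96 ± 1.58 and 0.77 ± 1.36 (log2 CPM, IK group and alone, SD, n = 6 each). The activating receptors Cd28, Icos and Cd226 had lower means in 3 of 3, with 0 passing. Cd28 was 0.10 ± 1.35 and 1.64 ± 1.04, and Icos 0.66 ± 1.24 and 2.04 ± 0.95 (log2 CPM, IK group and alone, SD, n = 6 each).

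Of 13 further ligands tested, 10 had lower means (median -0.09) and 0 passed after adjustment (limma). Tnfrsf14, which encodes the BTLA ligand HVEM, was 2.40 ± 0.47 in the IK group and 3.06 ± 0.40 alone, and Cd200, the ligand of an inhibitory receptor of myeloid cells, 3.03 ± 0.27 and 3.31 ± 0.37 (log2 CPM, SD, n = 6 each). The difference in Tnfrsf14 was -0.66, with a limma unadjusted p of 0.0132 and a Benjamini-Hochberg adjusted p of 0.43. Pvr, the ligand of TIGIT, was singled out after its values were seen because its mean was higher in the IK group. It was 6.37 ± 0.26 in the IK group and 6.14 ± 0.11 alone (log2 CPM, SD, n = 6 each). The difference was 0.23, with a limma unadjusted p of 0.0470 and a Benjamini-Hochberg adjusted p of 0.43. The costimulatory ligands Cd80 and Cd86 differed by -0.09 and -0.18 on the log2 scale.

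Along the interferon gamma pathway that induces PD-L1, 6 of 10 tested genes had lower means (median -0.09) and 0 passed (limma). Irf1, an interferon-induced transcription factor, was 6.26 ± 0.65 in the IK group and 6.83 ± 0.39 alone (log2 CPM, SD, n = 6 each). Socs1, a feedback inhibitor, was 1.52 ± 0.90 and 2.35 ± 0.62 (log2 CPM, IK group and alone, SD, n = 6 each). The receptor chains Ifngr1 and Ifngr2 differed by 0.04 and 0.01 on the log2 scale. Genes that act on the stability of PD-L1 protein had lower means in 3 of 8 (median 0.04) and 0 passed (limma). The widest differences were 0.12 for the kinase gene Gsk3b and 0.09 for Cop1, a ubiquitin ligase gene, both on the log2 scale.

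Among signalling proteins that act with the receptors, adaptors had lower means in 6 of 8 (median -0.26), with the kinases Zap70 at -1.05 and Lck at -0.68 as log2 differences, and 0 passed (limma). The phosphatase gene Ptpn11 differed by 0.02 and Bag6 by 0.01. Transcription factors of exhausted and effector cells had lower means in 12 of 13 (median -0.33), 8 of them at an unadjusted p under 0.05 and 0 after adjustment (limma), where 5.62% of all genes had such an unadjusted p. The factors that T cell receptor signals induce early differed by -0.0044 for Nr4a1, 0.10 for Nr4a2 and -0.06 for Nr4a3. Tbx21, which encodes T-bet, was -1.59 ± 1.797 in the IK group and 0.70 ± 1.10 alone, and Eomes, its relative, -0.68 ± 1.63 and 1.19 ± 0.99 (log2 CPM, SD, n = 6 each). Cytokine and cytokine receptor genes linked to exhaustion had lower means in 6 of 6 (median -0.18), and 0 passed (limma). As log2 differences, the receptor genes Il27ra, Il10ra and Il10rb were at -0.83, -0.27 and -0.10. The cytokine subunit gene Ebi3 was at -0.27, and the cytokine genes Tnf and Tgfb1 at -0.07 and -0.05. Il10, Il21 and Il2 were not in the deposited table, and Il27 did not pass the filter.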

How the data were processed

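RNA was measured in 12 whole tumors, 6 per group. Per the submitters' processing notes, CASAVA 1.8.2, TopHat 1.4.1, HTSeq and limma were used with build mm9; settings, strand handling and annotation are not given in the sources used here. The authors deposited log2 values, 1 column per tumor, of the form log2 CPM with 0.5 reads added. Each value gave a whole number of reads within 0.001, summing to 53312559 to 66142468 per tumor. Symbols were matched by identifier (14004 of 14496 genes). In GENCODE M21 an opposite-strand model that is not a row of the table shares 511 exon bases with Cd274, and the other 6 members share none.

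The test took the 14008 genes that reached a log2 CPM of 0 in 6 or more tumors (all 7 members among them; Pdcd1 reached that level in 7 tumors). It was limma 3.58.1 in R 4.3.3, two-sided and with a variance trend. Benjamini-Hochberg adjusted values under 0.05 were called. It was tested on simulated data. Differences are IK group minus alone. Named genes were the 7 members and, per pathway list, the genes past the threshold or else the 2 of widest difference, plus the 3 symbols of highest Pearson's r with each member. Pvr, Cd80, Cd86, Cd226, Ifngr1, Ifngr2, Ptpn11, Bag6, Nr4a1, Nr4a2 and Nr4a3 were named outside this rule, after their values were seen. So were Il10ra, Il10rb, Tnf, Tgfb1, Laptm5, Entpd1, Thy1, Ccl5, Bst2, Fscn1, Krt8 and Cldn7. A gene of the interferon gamma list is not reported here. Members and lists were chosen with earlier results of these data known. Chi-square per degree of freedom between tumors of a group was 13.2 to 164, so no 2 tumors were merged. Alternatives tried were other filters, scalings, variance models, weights, voom, a replicate block, covariates and leaving out each tumor.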

Additional observations from a re-analysis of the deposited data

Results flagged for a closer look

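Values far from the rest of their group were searched for among the 7 members and 16 named pathway genes. These were 46 sets of 6 values, from 23 genes in each group. Chance gives about 1 in 20 such sets if they are independent. The members moved together over the same tumors, and the pathway genes had been named for their wide differences, so that rate cannot judge the count. There were 11, all of them in the same tumor, replicate 2 of the IK group. Among the members this was Lgals9, at 6.73 against 6.28 to 6.43 log2 CPM in the other 5. Irf1 stood at 7.51, Lck at 4.79, Cd200 at 3.56, Socs1 at 3.30, Tnfrsf14 at 3.28, Icos at 3.06, Il27ra at 2.98, Zap70 at 2.91 and Cd28 at 2.71, each above the other 5 tumors. Cop1 stood below them, at 6.24 against 6.41 to 6.47 log2 CPM. The cause was not tested.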

How the results depend on the processing

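All 7 members kept a lower mean under every filter, scaling and variance model, limma voom, the replicate block and each fit with a tumor left out. Pdcd1lg2 and Tigit did not pass the stricter filter. With array weights Cd274 passed at -0.43 (limma, Benjamini-Hochberg adjusted p = 0.0469, against 0.047 to 0.89 over all its alternatives), and 411 genes were called lower and 134 higher. Those weights were lowest for replicate 2 of the IK group (0.322). Without a variance trend 1 gene was called higher (limma). Positive values appeared with the T cell reference as a covariate for Pdcd1 (0.31), Havcr2 (0.17), Lag3 (0.14), Lgals9 (0.059) and Tigit (0.037), and with Ptprc for Pdcd1 (0.13), Havcr2 (0.11) and Lgals9 (0.071). With each tumor left out, ranges were -0.45 to -0.29 for Cd274, -0.74 to -0.40 for Pdcd1lg2, -1.57 to -0.85 for Pdcd1, -0.96 to -0.51 for Lag3, -0.25 to -0.09 for Havcr2, -1.37 to -0.75 for Tigit and -0.19 to -0.05 for Lgals9, and 0 to 146 genes were called lower and 0 to 25 higher (limma). No label says that replicate numbers pair tumors. Same-numbered tumors deviated together in 2 of 6 pairs (r above 0.1). With the replicate block 0 genes were called (limma), Cd274 stayed at -0.35 (adjusted p = 0.439), and 1 of 12 tumors correlated best with its own number. Scaling moved the median difference of all genes to at most 0.03.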
